A study of Mus musculus with 13 samples.

Results

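Glucocorticoid receptor (GR) binding after dexamethasone in dKO liver was set against GR binding after vehicle in control liver, to see which sites of the endogenous hormone the drug-activated receptor reached, missed or exceeded. The dKO genotype is a knockout that includes NCOR1, per the series' design text, and these mice carried the genotype label CRE. They were killed 2 h after an intraperitoneal injection of dexamethasone at 1 mg/kg. The control mice carried the genotype label GFP and received saline as vehicle. All animals were male, were injected at zeitgeber time (ZT) 8, the number of hours after lights on, and gave liver at ZT 10. The age of the mice, the vector or promoter that drove Cre and the cells in which it acted are not given in the sources used here. Each group had 2 GR libraries, pooled by the authors into 1 peak list, so 4 of the 13 libraries of the series and 58389 of its 217044 peaks, in 7 lists, enter here. A site was called shared where peaks of both lists overlapped by at least 1 bp, dKO dexamethasone-only where no control vehicle peak overlapped, and control vehicle-only where no dKO dexamethasone peak did. Drug and genotype both differ between these groups, and from this pair of lists their parts cannot be told apart. The lists of control dexamethasone and dKO vehicle liver therefore stand beside the results.

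GR is a nuclear receptor that waits in the cytoplasm, enters the nucleus when it binds corticosterone or a synthetic ligand such as dexamethasone, and binds DNA mostly in chromatin that is already open. Its palindromic response element is built of paired repeats related to AGAACA. In hepatocytes it is known for switching on gluconeogenesis and amino acid breakdown and for damping inflammation. Endogenous corticosterone in mice climbs during the light phase, so vehicle-treated liver at this hour is not free of hormone. NCOR1 is a corepressor, a scaffold through which the histone deacetylase HDAC3 is brought to nuclear receptors.

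The dKO dexamethasone list held 28378 peaks from 31.9 M (mega) tags, with 4.11% of tags in peaks, and the control vehicle list held 30011 peaks from 27.5 M tags, with 5.0% in peaks. The NCOR1 list of dKO vehicle liver held 17282 peaks with 2.07% of tags, against 39458 peaks with 8.52% in control vehicle liver, and NCOR1 in dKO liver after dexamethasone was not analysed here. Sites lay near 8 of 9 hepatocyte marker genes and 4 of 7 Kupffer cell and leukocyte markers, but also near 5 of 6 neuronal genes. Among all 21900 protein-coding genes, 11805 had a site, so the genes near GR sites do not by themselves mark the cell type. Because every list pools its libraries, no value has a spread between animals. A difference between the lists was therefore described by its size, and intervals cover counting error only.

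Promoter windows that overlap sites of each class are printed below, and part of a window can lie outside the peak. The windows are RefSeq promoters of GRCm38.p6 (mm10), 250 bases before to 50 after the start of the transcript. Capitals mark matches to the response element core GNACANNNTGTNC or to the single repeat AGAACA, which can overlap each other, on either strand. The first 3 overlap shared sites. Mt1, a metal-binding metallothionein gene, had the strongest shared promoter site by the higher value of both lists. Acnat2, an acyltransferase gene, and Sgk1, a kinase gene induced by glucocorticoids, were the only windows with the full element. That element is AGAACA and TGTTCT with 3 bases of any kind between them. Insig2, which encodes a membrane protein that holds back the sterol factor SREBP, had one of the strongest dKO dexamethasone-only promoter sites. The repeat marked in the Insig2 window lies outside the peak, which spans chr1:121332602-121332802. Mt2, the neighbour of Mt1, had the strongest control vehicle-only promoter site, and Rxra, which encodes the common partner of many nuclear receptors, had another.
Mt1 promoter, chr8:94178839-94179138, plus strand: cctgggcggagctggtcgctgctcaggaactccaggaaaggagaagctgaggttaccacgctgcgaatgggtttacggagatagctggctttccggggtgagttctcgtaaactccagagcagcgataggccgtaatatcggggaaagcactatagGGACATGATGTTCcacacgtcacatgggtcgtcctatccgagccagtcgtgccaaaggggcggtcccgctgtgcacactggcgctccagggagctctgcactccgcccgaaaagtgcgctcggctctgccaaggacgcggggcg
Acnat2 promoter, chr4:49408102-49408401, minus strand: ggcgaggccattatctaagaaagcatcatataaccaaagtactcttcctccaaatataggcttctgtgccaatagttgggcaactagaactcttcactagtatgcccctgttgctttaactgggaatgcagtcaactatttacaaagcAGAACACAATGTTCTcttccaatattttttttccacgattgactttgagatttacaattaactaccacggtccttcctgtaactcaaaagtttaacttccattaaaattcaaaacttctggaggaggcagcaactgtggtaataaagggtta
Sgk1 promoter, chr10:21993640-21993939, plus strand: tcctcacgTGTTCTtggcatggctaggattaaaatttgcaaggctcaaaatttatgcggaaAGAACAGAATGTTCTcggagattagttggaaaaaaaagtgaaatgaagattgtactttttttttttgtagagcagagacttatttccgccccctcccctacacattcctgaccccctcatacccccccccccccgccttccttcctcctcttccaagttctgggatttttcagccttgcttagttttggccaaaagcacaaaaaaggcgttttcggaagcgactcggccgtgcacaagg
Insig2 promoter, chr1:121332540-121332839, minus strand: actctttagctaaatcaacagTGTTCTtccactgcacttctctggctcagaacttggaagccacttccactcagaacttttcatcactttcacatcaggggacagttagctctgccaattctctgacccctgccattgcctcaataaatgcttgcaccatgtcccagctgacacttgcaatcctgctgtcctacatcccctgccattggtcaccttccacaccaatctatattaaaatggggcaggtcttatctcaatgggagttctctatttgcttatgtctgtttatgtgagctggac
Mt2 promoter, chr8:94172368-94172667, plus strand: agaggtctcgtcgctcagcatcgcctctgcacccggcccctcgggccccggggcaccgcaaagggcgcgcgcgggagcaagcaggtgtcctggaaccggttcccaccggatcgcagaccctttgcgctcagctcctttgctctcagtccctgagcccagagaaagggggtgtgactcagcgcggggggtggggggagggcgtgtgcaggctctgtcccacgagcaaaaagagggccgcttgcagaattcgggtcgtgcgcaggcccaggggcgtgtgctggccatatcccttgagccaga
Rxra promoter, chr2:27676951-27677250, plus strand: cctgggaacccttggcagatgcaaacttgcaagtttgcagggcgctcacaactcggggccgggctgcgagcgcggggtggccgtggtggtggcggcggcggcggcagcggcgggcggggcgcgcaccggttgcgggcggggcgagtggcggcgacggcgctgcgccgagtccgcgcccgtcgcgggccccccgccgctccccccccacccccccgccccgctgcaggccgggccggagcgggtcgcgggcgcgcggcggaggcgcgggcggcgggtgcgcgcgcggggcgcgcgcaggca
The Mt1 window held 111.4 tags in dKO dexamethasone and 148.0 in control vehicle, in the authors' unit of tags per 10 M, and its core match began at position -94 from the start. Acnat2 had 84.3 in dKO dexamethasone and 104.5 in control vehicle, with the core at position -101. Sgk1 had 69.9 in dKO dexamethasone and 72.6 in control vehicle, with the core at position -188. At all 3 the dKO dexamethasone value was the lower one as deposited. The Insig2 peak had 28.0 tags in dKO dexamethasone and 52.3 in control dexamethasone, and was called in neither vehicle list. The Mt2 window peak had 38.4 tags in control vehicle and 20.2 in dKO vehicle, and the Rxra peak 24.0 in control vehicle and 18.3 in dKO vehicle. Both were called in neither dexamethasone list.

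Of 21238 promoter windows of 17469 genes, 172 overlapped dKO dexamethasone peaks alone, 839 control vehicle peaks alone and 886 peaks of both lists or a shared site. The core was found in 1 of the dKO dexamethasone-only windows (0.581%, near Cfap298), in 2 control vehicle-only windows (0.238%, at Limd2 and Sptb) and in 21 shared windows (2.37%, 95% interval 1.47 to 3.60). It was present in 94 of all windows (0.443%). Mterf2, Fam107a and Pot1b each gave overlapping shared windows that were counted separately, so the windows behind the interval are not independent. The full element, searched on both strands, was in 2 of all windows, both of which overlapped shared sites. The single repeat was about as common in each class: 20.3% of dKO dexamethasone-only, 16.0% of control vehicle-only and 16.4% of shared windows held it, beside 16.2% of all windows. A match is only a match of letters, and these windows hold few of the sites.

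Drug-activated GR in dKO liver reached 20197 of the 30011 control vehicle sites (67.3%, 95% Clopper-Pearson interval 66.8 to 67.8) and missed 9814 (32.7%, 32.2 to 33.2). It exceeded them at 8181 of its own 28378 sites (28.8%, 28.3 to 29.4), so both lists together held 38192 sites. Peak calling alone sets part of these counts, because a peak below the threshold of 1 list is counted as missing there. The one-sided sites were the weaker ones. Their median tag count was 8.15 for the dKO dexamethasone-only class, with a highest value of 131.6, and 8.92 for the control vehicle-only class, with a highest value of 64.6. Shared sites had medians of 11.4 in dKO dexamethasone and 15.8 in control vehicle.

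Strength separated the classes more sharply in control vehicle than in dKO dexamethasone. Each list was split into 5 equal classes by tag count. From the weakest to the strongest class of the dKO dexamethasone list, 54.5%, 31.3%, 22.3%, 18.9% and 15.5% of peaks had no control vehicle peak. The matching shares of the control vehicle list were 64.3%, 47.6%, 28.7%, 14.5% and 6.43%. Among the 1000 strongest peaks, 63 in dKO dexamethasone were one-sided and 15 in control vehicle. Among the 100 strongest, 1 in dKO dexamethasone was one-sided, the Zbtb16 site described below, and 0 in control vehicle, which allows a share of up to 3.62%. The strongest sites of endogenous hormone were thus nearly all reached, while the dKO dexamethasone list kept a strong tail of its own. The one-sided sites also stood out less from their surroundings: 78.6% of the dKO dexamethasone-only and 79.1% of the control vehicle-only sites were under 8-fold over the local 10 kb, against 43.0% of shared sites by their dKO dexamethasone peak and 32.1% by their control vehicle peak. Few had a called peak close by, since 8.09% of dKO dexamethasone-only and 7.68% of control vehicle-only sites had a peak of the other list within 500 bp. A peak at the same place but below the threshold of the other list cannot be seen this way.

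**Figure D1:**
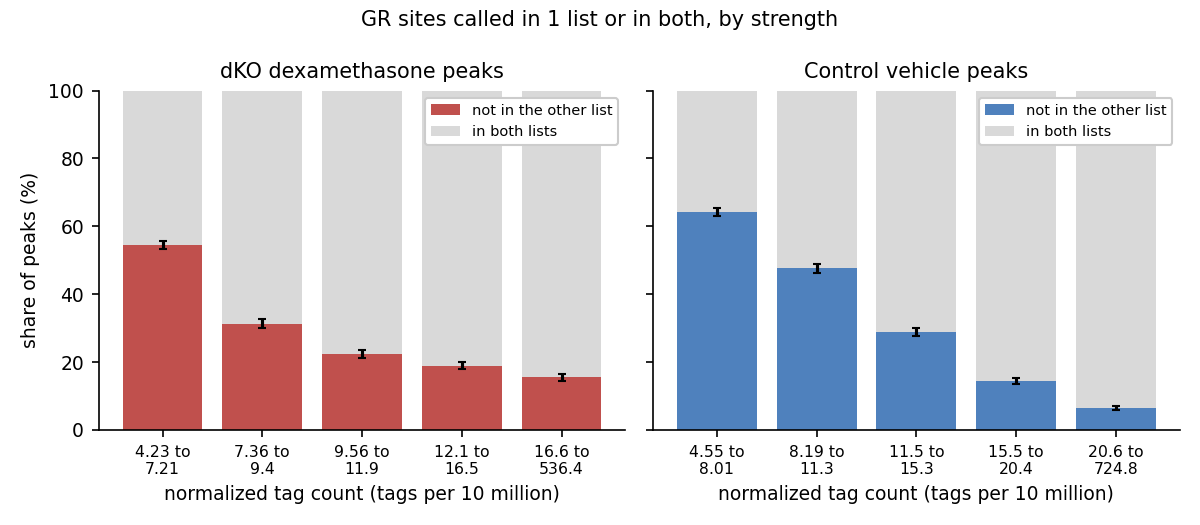
Share of GR peaks (%, vertical axis) that were found in 1 list only (coloured) or in both (grey), in 5 classes of normalized tag count (horizontal axis, range of tags per 10 M), for dKO dexamethasone (left) and control vehicle (right). Bars are 95% Clopper-Pearson intervals of counting error. The one-sided share falls to 15.5% in the strongest class of dKO dexamethasone and to 6.43% in that of control vehicle.

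The sites that dKO dexamethasone liver added were mostly drug sites of control liver too. Of the 8181, 66.9% were in the control dexamethasone list and 19.6% in the dKO vehicle list. By combination, 52.5% were in control dexamethasone and not in dKO vehicle, 5.13% in dKO vehicle and not in control dexamethasone, 14.4% in both and 27.9% in neither. In the strongest class of the list 86.9% of these sites were in control dexamethasone and 31.0% in dKO vehicle. The control dexamethasone list was the longest, with 40853 peaks, and the dKO vehicle list the shortest of the GR lists, with 23362, and a longer list holds more sites of any kind.

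The missed sites split differently. Of the 9814, 54.4% were in the control dexamethasone list and 28.1% in the dKO vehicle list. Control dexamethasone without dKO vehicle held 36.7%, dKO vehicle without control dexamethasone 10.4%, both 17.7% and neither 35.2%. In the strongest class of the control vehicle list 65.9% of the missed sites were in control dexamethasone and 55.6% in dKO vehicle. Shared sites were called in both other lists at 80.0%, in control dexamethasone at 95.3% and in dKO vehicle at 82.8%. Being called in 2 lists already favours a call in another, so these shares are a description of the classes.

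**Figure D2:**
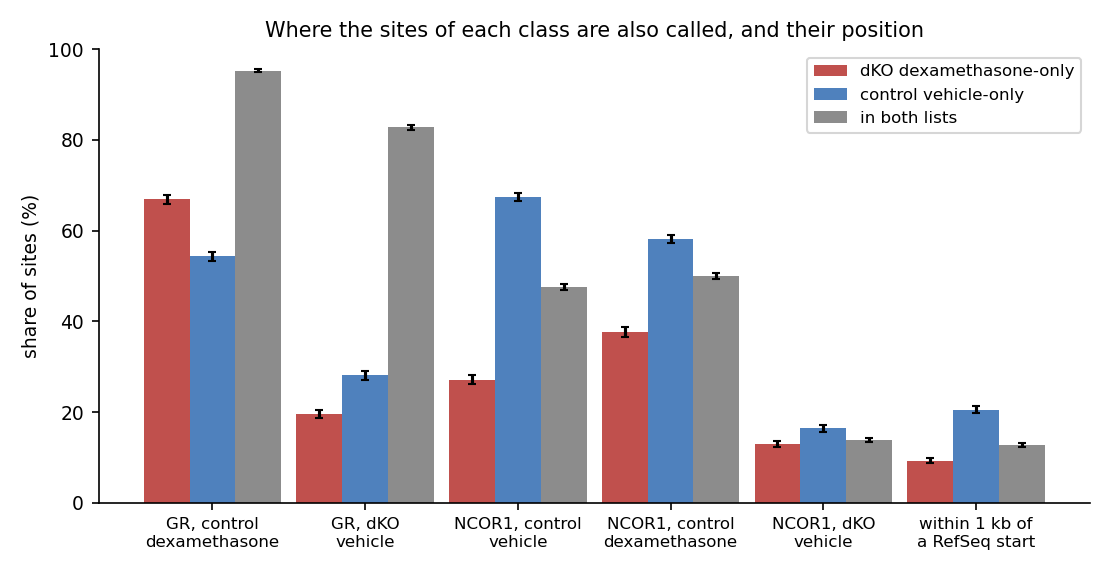
Share of sites (%, vertical axis) of each class that overlap a peak of 5 other lists or lie within 1 kb of a RefSeq start (horizontal axis), with 95% intervals of counting error. Red is dKO dexamethasone-only, blue control vehicle-only, grey sites in both lists, by the dKO dexamethasone peak. The dKO dexamethasone-only class is the lowest for NCOR1 of control vehicle liver, at 27.1%, and the control vehicle-only class the highest, at 67.5%.

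NCOR1 occupancy in control liver differed between the classes in opposite directions. An NCOR1 peak of control vehicle liver overlapped 27.1% of dKO dexamethasone-only sites (26.2 to 28.1) and 67.5% of control vehicle-only sites (66.5 to 68.4), against 47.6% of shared sites. The order held in every class of strength. In the dKO dexamethasone list 25.7%, 30.6%, 30.8%, 27.9% and 19.2% of the one-sided sites carried NCOR1, from weakest to strongest, against 47.2%, 39.6%, 34.5%, 45.5% and 68.4% of the shared sites. In the control vehicle list 59.9%, 75.3%, 74.2%, 64.9% and 66.4% of the one-sided sites did, against 53.3%, 61.3%, 47.1%, 33.2% and 52.3% of the shared ones. The intervals overlapped only in the middle class of the dKO dexamethasone list, at 28.3 to 33.4 for one-sided and 33.1 to 35.9 for shared sites.

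The NCOR1 list of control vehicle liver has the genotype and treatment of the control vehicle GR list, and rests on 1 library. With the NCOR1 list of control dexamethasone liver, 37.6% of dKO dexamethasone-only and 58.2% of control vehicle-only sites carried a peak, against 50.0% of shared sites, so the classes lay closer together. With NCOR1 of dKO vehicle liver the shares were 12.9%, 16.4% and 13.8%. The part of shared genotype, treatment and open chromatin in these shares was not tested.

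**Figure D3:**
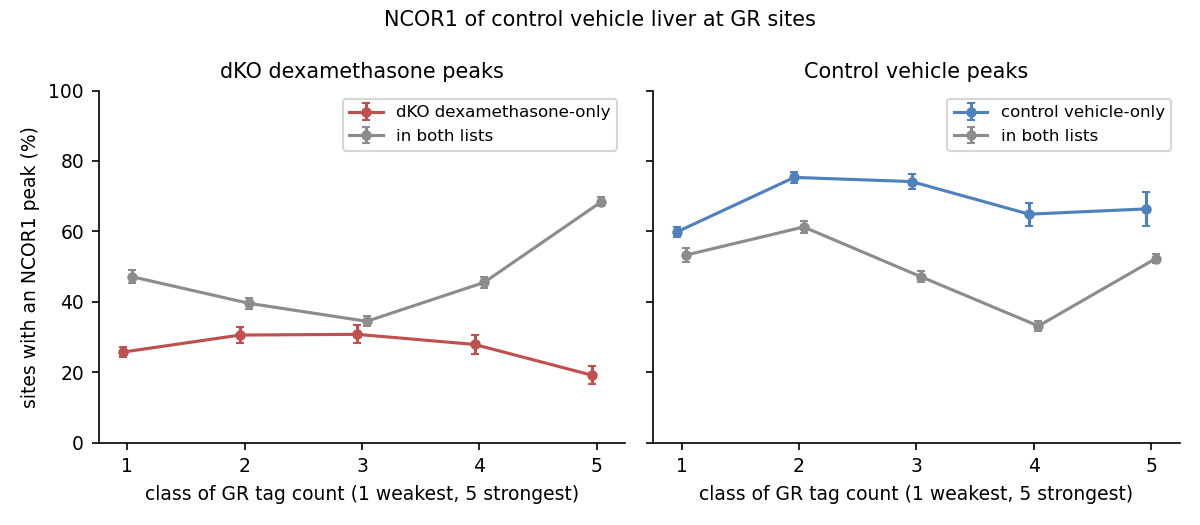
Share of GR sites (%, vertical axis) that overlap an NCOR1 peak of control vehicle liver, in 5 classes of GR tag count (horizontal axis, 1 weakest), for the dKO dexamethasone list (left) and the control vehicle list (right). Bars are 95% intervals of counting error. One-sided dKO dexamethasone sites lie below the grey shared sites in every class, and one-sided control vehicle sites above them.

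Position relative to genes differed as well. Within 1 kb of a RefSeq start lay 9.30% of dKO dexamethasone-only and 20.6% of control vehicle-only sites, against 12.7% of shared sites. In the strongest classes the shares were 4.73% of dKO dexamethasone-only sites (shared 10.2%) and 24.0% of control vehicle-only sites (shared 14.8%). The NCOR1 difference was not limited to starts: beyond 1 kb 25.6% of dKO dexamethasone-only and 68.4% of control vehicle-only sites carried NCOR1, against 48.1% of shared sites. Inside the body of a protein-coding gene lay 55.6%, 57.4% and 54.8% of the dKO dexamethasone-only, control vehicle-only and shared sites. A shared site lay within 10 kb of 30.8% of dKO dexamethasone-only and 32.7% of control vehicle-only sites.

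The strongest dKO dexamethasone-only sites lay at classic GR targets and at genes not usually listed as such. Zbtb16, a zinc finger repressor gene strongly induced by glucocorticoids, led with 131.6 tags at chr9:48736407-48736607. An intergenic site beside Fkbp5, assigned to Armc12 at a distance of 17.0 kb, had 118.5 tags at chr17:28513795-28513995. St3gal1, a sialyltransferase gene, had a site of 99.2 tags 41.8 kb outside its body, and Rnf144b, a ubiquitin ligase gene, one of 95.4 tags inside it. Cdo1, which starts cysteine breakdown, had 89.3 tags at a site 4.55 kb away. Fkbp5, the GR cochaperone and feedback gene, had 83.5 tags at chr17:28424485-28424685, inside the gene. Cdk17, a kinase gene, had 80.4 tags and Tef, a clock output factor of the PAR bZIP family, had 74.9 tags.

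All 8 of these sites were called in control dexamethasone, with 46.3 tags at St3gal1 as the lowest value and 223.6 at Cdk17 as the highest, and 0 of the 8 in dKO vehicle or under an NCOR1 peak of control vehicle liver. At St3gal1 and Rnf144b the dKO dexamethasone value was the higher one, with 99.2 against 46.3 and 95.4 against 78.1 in control dexamethasone. At the other 6 it was the lower one. The Armc12 and Zbtb16 sites lay 763 and 919 bp from a control vehicle peak and were 4.36-fold and 8.31-fold over their surroundings, whereas St3gal1 and Rnf144b, at 26.2-fold and 40.0-fold, lay 20093 and 6789 bp away. The authors' filter required 4-fold over the local region, so a site beside a strong peak can fail it in 1 list and pass it in the other.

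The strongest missed sites were weaker, between 50.2 and 60.6 tags in control vehicle. Ptpn1, which encodes a phosphatase that shuts off the insulin receptor, was the nearest protein-coding gene of the first, at chr2:167831075-167831275 with 60.6 tags, although it lay 99.6 kb from the gene body. A RefSeq start lay closer to this site, at 4938 bp. Hmcn2, a hemicentin gene, had 59.2 tags inside its body. Zbtb16 had 56.6 tags at chr9:48749252-48749452, so it leads one class and stands in the other. Slc2a6, a glucose transporter family gene, had 53.3 tags at a site 14.7 kb outside its body. Itih3, which encodes a plasma inter-alpha-trypsin inhibitor chain, had 51.9, and Dap, a death-associated protein gene, 51.3. Dpys, which encodes dihydropyrimidinase of pyrimidine breakdown, had 51.0 and Ptprd, a receptor phosphatase gene, 50.2.

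All 8 missed sites were called again in control dexamethasone, with 26.0 tags at Dap as the lowest value and 94.7 at Hmcn2 as the highest. Only the Dpys site was called in dKO vehicle, with 23.1 tags. An NCOR1 peak of control vehicle liver lay under 7 of the 8, the exception being Zbtb16. At Ptpn1, Slc2a6 and Dap the control vehicle value exceeded the control dexamethasone one, and at the other 5 it was the lower. The sites named here were chosen by strength within each class, so they describe its top and not the whole class.

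At the 20197 shared sites GR carried fewer tags in dKO dexamethasone than in control vehicle. The median log2 ratio, dKO dexamethasone over control vehicle, was -0.42, with quartiles of -0.77 and 0.02, and 25.9% of sites were higher in dKO dexamethasone. The deposited tag counts are scaled to all tags of a library, and 4.11% of them fell into peaks in dKO dexamethasone against 5.0% in control vehicle. Scaled to the tags in peaks, the median moved by 0.28 to -0.14 and 41.3% of sites were higher. Scaled to a median of 0, which moves every ratio by 0.42, 50.0% were higher. The size of the overall difference is thus set largely by the scaling, and directions of single sites are given as deposited and read against the median.

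At least 2-fold higher in dKO dexamethasone were 723 shared sites (3.58%) and at least 2-fold lower 2227 (11.0%). The sites just inside and outside these limits had log2 ratios of 1.0 and 0.998 on the higher side and -1.0 and -0.998 on the lower. In the strongest 20% of shared sites 324 (8.05%) were higher and 329 (8.18%) lower as deposited, with a median of -0.25. Scaled to the tags in peaks, these counts were 496 higher and 103 lower, and at a median of 0 they were 601 and 63. From the weakest to the strongest of 5 equal classes the medians were -0.21, -0.45, -0.57, -0.60 and -0.25. Scaled to the tags in peaks, 1249 sites were 2-fold higher and 569 lower, and scaled to a median of 0, 1657 and 287, so which direction holds more sites turns with the scaling.

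**Figure D4:**
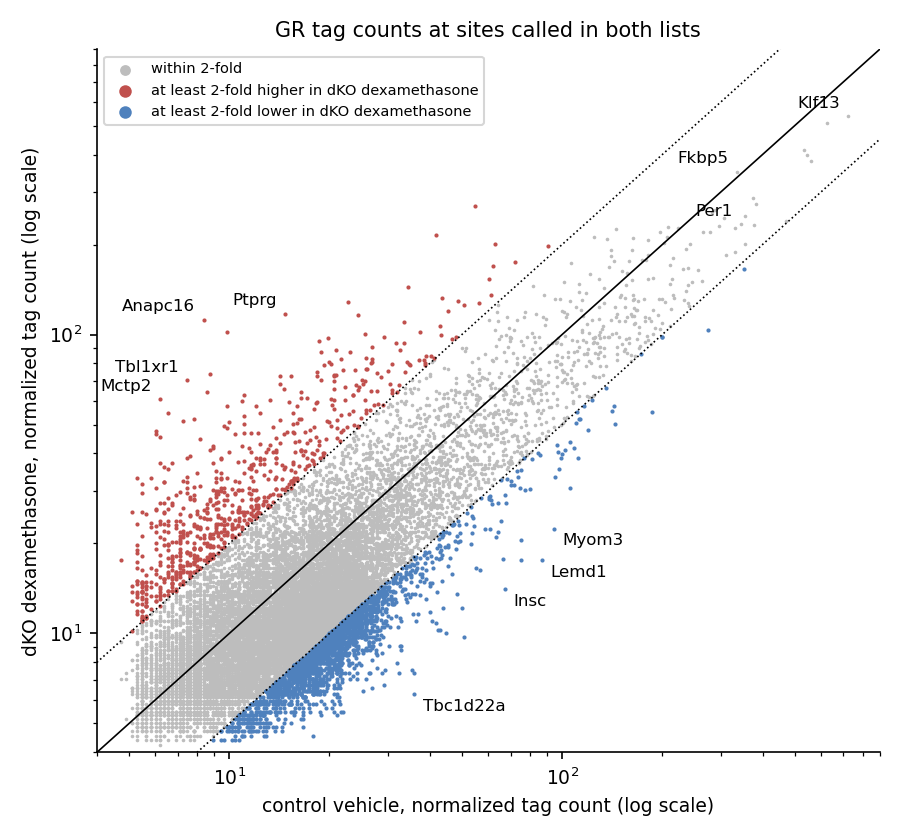
Normalized tag counts (tags per 10 M, log scales) of dKO dexamethasone (vertical) and control vehicle (horizontal) at the 20197 shared sites. The solid line is equality and the dotted lines are 2-fold. Red points are the 723 sites at least 2-fold higher and blue points the 2227 at least 2-fold lower in dKO dexamethasone, and named genes are those of the highest, lowest and strongest sites in the text.

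The sites on either side differed in the levels of the other GR lists. Under the 2-fold higher sites the median tag counts were 26.8 in dKO dexamethasone, 36.8 in control liver with dexamethasone, 11.1 in dKO vehicle and 9.46 in control vehicle, each over the sites called in that list. The dKO dexamethasone and control vehicle values chose these sites, and of the lists that did not, control dexamethasone had the higher median and dKO vehicle the lower. Under the 2-fold lower sites the medians were 8.78 in dKO dexamethasone, 13.0 in control liver with dexamethasone, 16.7 in dKO vehicle and 20.0 in control vehicle. There, of the lists that did not choose the sites, control dexamethasone had the lower median and dKO vehicle the higher. An NCOR1 peak of control vehicle liver lay at 28.4% of the higher and 25.7% of the lower sites, against 51.3% of the sites within 2-fold. Within 1 kb of a start lay 4.76% of the higher and 12.5% of the lower sites, against 13.0% within 2-fold.

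Among the strongest 20% the pattern for NCOR1 was different. There 29.0% of the higher and 60.5% of the lower sites carried NCOR1, against 71.8% of the sites within 2-fold. Seen from the other side, 17.5% of strong sites without NCOR1 were at least 2-fold higher, against 3.46% of those with it. Those without it were also at least 2-fold lower more often, at 9.92% against 7.34%. Their median log2 ratio was the lower one, at -0.35 against -0.24. Over all shared sites the medians were -0.62 without NCOR1 and -0.20 with it, and 15.6% against 5.96% were at least 2-fold lower. The median tag counts of the strong lower sites were 14.7 in dKO dexamethasone, 31.6 in control liver with dexamethasone, 21.8 in dKO vehicle and 34.9 in control vehicle. Of the lists that did not enter the choice of these sites, control dexamethasone had the higher median and dKO vehicle the lower, the other way round from the lower sites as a whole. The dKO dexamethasone and control vehicle values chose the sites, and all 4 medians are a description.

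The 8 shared sites with the highest ratio in the strongest 20% had between 47.5 and 117.5 tags in dKO dexamethasone and between 6.01 and 14.7 in control vehicle. Anapc16, a subunit of the anaphase-promoting complex, had 112.2 in dKO dexamethasone and 8.37 in control vehicle at chr10:59997602-59997802, a log2 ratio of 3.74 with a counting interval of 3.14 to 4.42. Cldn14, a tight junction claudin gene, had 102.2 in dKO dexamethasone and 9.83 in control vehicle. Tbl1xr1, which encodes a subunit of the NCOR complex itself, had 70.4 in dKO dexamethasone and 7.46 in control vehicle, 66.1 kb outside the gene. In dKO dexamethasone the rest had 60.8 at Mctp2, 73.5 at Fam220a, 54.8 at Rab31, 117.5 at Ptprg and 47.5 at Efcab11. In control vehicle these had 6.19 at Mctp2, 8.74 at Fam220a, 6.55 at Rab31, 14.7 at Ptprg and 6.01 at Efcab11. All 8 were called in control dexamethasone, from 40.6 at Tbl1xr1 to 214.3 at Cldn14, and 0 of the 8 had an NCOR1 peak in control vehicle liver. In dKO vehicle, 4 of them were called, at 5.78 to 13.3 tags.

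The 8 with the lowest ratio had between 6.27 and 22.4 tags in dKO dexamethasone and between 32.4 and 94.3 in control vehicle. Tbc1d22a, a Rab GTPase-activating protein gene, had 6.27 in dKO dexamethasone and 36.0 in control vehicle at chr15:86263974-86264174, a log2 ratio of -2.52 with a counting interval of -3.30 to -1.82. Cyp7b1, the oxysterol 7-alpha-hydroxylase of the alternative bile acid pathway, had 7.52 in dKO dexamethasone and 35.3 in control vehicle. Ephx2, the soluble epoxide hydrolase gene, had 7.36 in dKO dexamethasone and 35.9 in control vehicle. In dKO dexamethasone the rest had 17.6 at Lemd1, 14.1 at Insc, 7.36 at Taf2, 17.6 at Gm826 and 22.4 at Myom3. In control vehicle these had 86.8 at Lemd1, 67.2 at Insc, 32.4 at Taf2, 75.4 at Gm826 and 94.3 at Myom3. The Lemd1 and Insc sites lay 20.3 and 29.0 kb outside their genes. NCOR1 of control vehicle liver lay under 7 of the 8, Cyp7b1 being the exception. In control dexamethasone 7 of them stood above the control vehicle value, from 38.1 at Cyp7b1 to 110.9 at Lemd1, and only Insc stood below it, with 18.5. In dKO vehicle 6 were called, with 36.1 at Insc and between 4.82 and 10.4 at the other 5.

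The strongest shared sites were mostly lower too. Klf13, a Krüppel-like factor gene, had 536.4 in dKO dexamethasone and 724.8 in control vehicle at chr7:63896966-63897166, a log2 ratio of -0.43. The Ptpn1 site at chr2:167844658-167844858, 86.0 kb outside the gene and 3084 bp from a RefSeq start, had 511.2 in dKO dexamethasone and 626.3 in control vehicle. The strongest Zbtb16 site had 415.3 in dKO dexamethasone and 533.1 in control vehicle. The Armc12 site beside Fkbp5 had 380.2 in dKO dexamethasone and 560.1 in control vehicle. Slc45a1, a sugar transporter family gene 33.1 kb from its site, showed one of the larger differences, with 239.4 in dKO dexamethasone and 470.0 in control vehicle. Zfp36, whose product speeds mRNA decay and damps inflammation, had 274.2 in dKO dexamethasone and 381.9 in control vehicle. Of the 20 strongest shared sites 19 were lower in dKO dexamethasone, with a median of -0.46, close to the -0.42 of all shared sites. The exception was Fkbp5, with 350.9 in dKO dexamethasone and 335.3 in control vehicle, a log2 ratio of 0.07 with a counting interval of -0.06 to 0.19.

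All sites of 12 genes show how the classes mix within a locus. Fkbp5 had 7 shared, 4 dKO dexamethasone-only and 3 control vehicle-only sites. Its shared sites ran from a log2 ratio of 1.47 at chr17:28463992-28464192 (43.7 in dKO dexamethasone and 15.8 in control vehicle) to -0.69 at chr17:28485415-28485615 (18.6 in dKO dexamethasone and 30.0 in control vehicle). The 4 added sites were all in control dexamethasone and 0 of them in dKO vehicle. The 3 missed sites, with 24.0, 26.9 and 14.7 tags in control vehicle, were absent from the control dexamethasone list and all carried NCOR1, and 1 was in dKO vehicle. Within this gene, therefore, sites of both kinds lay kilobases apart.

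Zbtb16 had 13 shared, 7 added and 2 missed sites. Its 5 strongest shared sites, with 93.2 to 415.3 tags in dKO dexamethasone and 151.6 to 533.1 in control vehicle, all carried NCOR1. All were lower in dKO dexamethasone as deposited. Their log2 ratios ran from -0.75 to -0.22, on both sides of the -0.42 median of all shared sites. Of its 6 shared sites without NCOR1, 2 were higher, 3 lower and 1 equal. The higher pair, at chr9:48783362-48783562 and chr9:48787402-48787602, had 39.8 and 52.7 in dKO dexamethasone, against 25.3 and 39.3 in control vehicle. Control dexamethasone had 106.1 and 111.1 at this pair. Of the 7 added sites 6 were in control dexamethasone and 1 was in dKO vehicle.

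Other GR targets had few added sites or none. Tsc22d3, which encodes the anti-inflammatory leucine zipper protein GILZ, had 8 shared and 4 missed sites, and 0 added ones. Its shared site at chrX:140513447-140513647 had 58.3 in dKO dexamethasone and 39.1 in control vehicle, while that at chrX:140567842-140568042 had 32.9 in dKO dexamethasone and 59.9 in control vehicle. Per1, a core clock repressor with a known GR element, had both of its sites shared, with 233.8 and 176.4 in dKO dexamethasone, against 344.4 and 143.6 in control vehicle. Mt2 had a shared site 1.09 kb outside its body, at 115.0 in dKO dexamethasone and 115.2 in control vehicle, although its promoter site was missed. Dusp1, a MAP kinase phosphatase gene, had an added site of 36.4 tags 1.04 kb from its body that no other GR list held, and a missed one of 32.0 tags 1.37 kb away that was in dKO vehicle (27.1). The added site was 4.03-fold over its local region, close to the required 4-fold.

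The strongest sites of these gluconeogenic genes, by the higher of their values, were shared. Tat, the tyrosine aminotransferase gene and a classic GR target of liver, had 4 shared sites and 1 added one. Its strongest, at chr8:109987863-109988063 inside the gene, had 182.7 in dKO dexamethasone and 140.0 in control vehicle, whereas that at chr8:110004405-110004605 had 14.7 in dKO dexamethasone and 40.2 in control vehicle. Pck1, which encodes the cytosolic phosphoenolpyruvate carboxykinase, had a site 0.324 kb from its body with 43.7 in dKO dexamethasone and 44.6 in control vehicle. A second Pck1 site, 6.13 kb away, had 13.9 in dKO dexamethasone and 31.1 in control vehicle. G6pc, the glucose-6-phosphatase gene, had 63.1 in dKO dexamethasone and 44.2 in control vehicle at a site 6.81 kb away, and 29.1 in dKO dexamethasone and 67.2 in control vehicle at one 5.32 kb away. The first carried no NCOR1 peak and the second did. Ppargc1a, a coactivator of gluconeogenesis, had 11 shared, 2 added and 5 missed sites. Its strongest shared site had 38.7 in dKO dexamethasone and 26.9 in control vehicle, and a missed site had 27.1 in control vehicle. Cyp7a1, which opens the classic route of bile acid synthesis, had 5 shared sites within 10.7 to 31.7 tags in dKO dexamethasone and 15.1 to 35.3 in control vehicle, and 1 missed site.

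**Figure D5:**
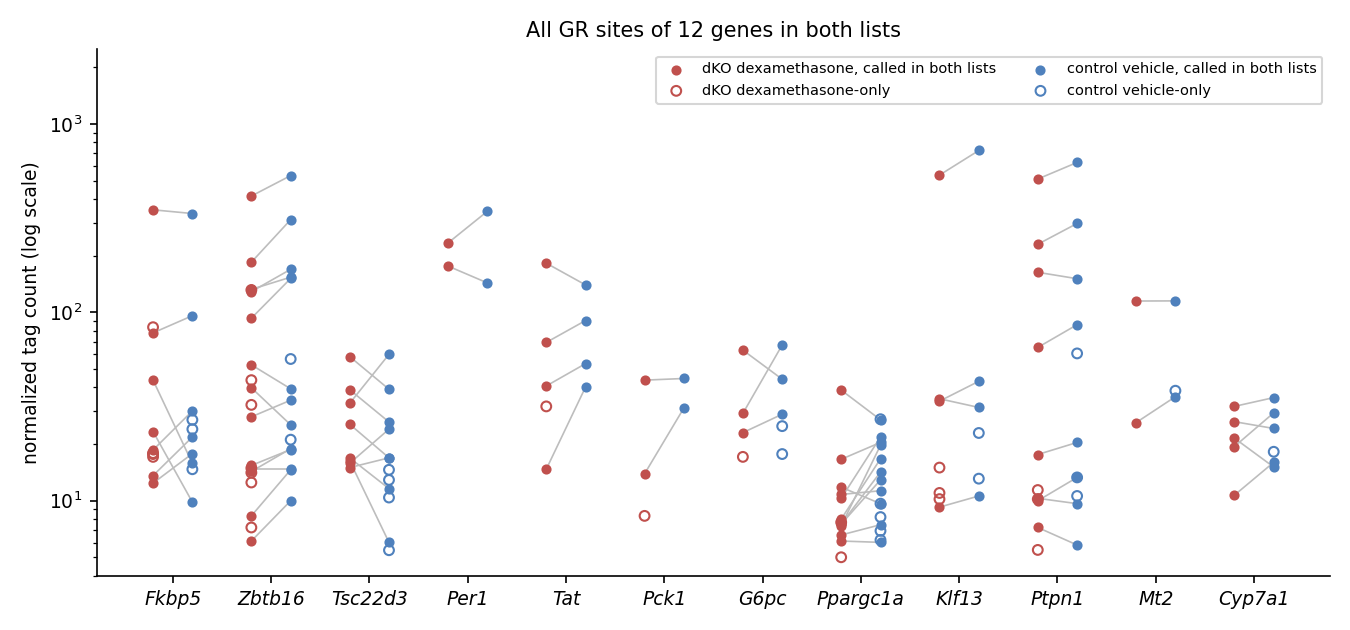
Normalized tag counts (tags per 10 M, log scale) of every GR site of 12 genes, dKO dexamethasone in red at the left and control vehicle in blue at the right of each gene. Filled points joined by a line are shared sites, and open points are sites of 1 list. The strongest site of each gene, by its higher value, is filled, and most open points lie in the lower part of a gene's range, with Zbtb16 (131.6) and Fkbp5 (83.5) in dKO dexamethasone among the exceptions.

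Assigned to the nearest protein-coding gene within 100 kb, the sites of both lists reached 11805 of 21900 genes. Only dKO dexamethasone-only sites lay near 946 genes (8.01%), only control vehicle-only sites near 1563 (13.2%) and only shared sites near 3838 (32.5%). A further 503 genes (4.26%) had sites of both one-sided classes and no shared one. Of the 10859 genes with a control vehicle site, 5138 had all of these sites reached and 2066 none. The strongest genes with added sites alone were Mpc2, a subunit of the mitochondrial pyruvate carrier, with 46.7 tags, and Acot2, a mitochondrial acyl-CoA thioesterase gene, with 43.7. Acot2 was also called in dKO vehicle (20.1) and not in control dexamethasone. Mef2d (35.3) and Ptpn11 (32.0), a transcription factor and a phosphatase gene, followed lower in the order. Among the strongest genes with missed sites alone were Slc2a6 (53.3), Prxl2b (32.2), a prostamide synthase gene, Msrb1 (30.9), a methionine sulfoxide reductase gene, and Smad9 (29.9), a BMP signalling factor. These lists by gene were named after their values were seen.

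Gene lists are given as counts beside the background of all sites near genes, where 29.3% of dKO dexamethasone sites were added, 33.6% of control vehicle sites were missed and the median log2 ratio of shared sites was -0.40. Of the 17858 shared sites near genes, 661 were at least 2-fold higher and 1858 at least 2-fold lower. The 2-fold counts of the lists are likewise as deposited, move with the scaling and were not tested. Near 18 of 20 GR target genes, 24 of 93 dKO dexamethasone sites (25.8%) were added and 22 of 91 control vehicle sites (24.2%) missed, with a median of -0.22. Of their 69 shared sites, 8 were 2-fold higher and 1 lower. All of these GR target genes with a control vehicle site had at least 1 shared one. The same held for the lists of gluconeogenesis, clock, corepressor and hepatocyte genes, and of endothelial, stellate and cholangiocyte markers. Over all 10859 genes with a control vehicle site, 2066 had none reached. Fam107a, an actin-linked stress gene, had the highest ratio, with 28.7 in dKO dexamethasone and 9.10 in control vehicle. Errfi1, a feedback inhibitor of EGF receptors, had 24.4 in dKO dexamethasone and 8.37 in control vehicle at a site 28.6 kb away. Nfkbia, which encodes the NF-kappa-B inhibitor, had an added site of 59.9 tags that control dexamethasone also held (78.3).

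For gluconeogenesis and its regulators 35 of 113 sites were one-sided in each list (31.0%), with a median of -0.38. Of the 78 shared sites, 1 was 2-fold higher and 11 were lower. The higher one lay 73.5 kb from Irs2, an insulin receptor substrate gene, with 59.5 in dKO dexamethasone and 15.1 in control vehicle. Pdk4, a kinase gene that blocks pyruvate oxidation, had the strongest added site (63.8), which was in control dexamethasone (47.6) and dKO vehicle (18.0). Cebpb, a liver transcription factor gene, had the strongest missed one (38.0), which was in control dexamethasone (29.6) and dKO vehicle (44.3). For amino acid catabolism and the urea cycle 8 of 51 sites were added (15.7%) and 21 of 64 missed (32.8%). Cdo1 led the added sites, and Slc7a2, an arginine transporter gene, the missed ones with 28.4 tags. The lowest ratios lay at Agxt (6.89 in dKO dexamethasone and 18.4 in control vehicle) and at the urea cycle gene Asl (10.3 in dKO dexamethasone and 25.5 in control vehicle).

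Near fatty acid oxidation and ketogenesis genes 19 of 46 sites were added and 19 of 46 missed (41.3% each). Over all sites near genes the shares were 29.3% and 33.6%. These are few sites from 1 of 14 lists, and the difference was not tested. The median log2 ratio as deposited was 0.01. Near Acot2, Ppara, which encodes the fasting fat receptor, and Acot1, the added sites of 43.7, 26.0 and 19.4 tags were not in control dexamethasone. Cyp4a14, an omega-hydroxylase gene and a PPAR-alpha target, had 27.7 in dKO dexamethasone and 12.7 in control vehicle, and Fgf21, a hepatic fasting hormone gene, had 29.9 in dKO dexamethasone and 15.3 in control vehicle. In dKO vehicle the Cyp4a14 site had 31.9 and the Fgf21 site 18.5, and in control dexamethasone they had 25.0 and 28.3. Cpt1a, the gate of mitochondrial fat import, had 35.7 in dKO dexamethasone and 59.7 in control vehicle at its lowest ratio. Lipogenesis had 19 of 85 sites added (22.4%) and 27 of 93 missed (29.0%). Of its 66 shared sites, 1 was 2-fold higher, at Acacb (29.9 in dKO dexamethasone and 9.46 in control vehicle). A further 5 were 2-fold lower, among them Acaca (9.40 in dKO dexamethasone and 27.1 in control vehicle) and Acly (13.6 in dKO dexamethasone and 36.2 in control vehicle). These genes encode acetyl-CoA carboxylases and ATP citrate lyase.

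Bile acid and cholesterol genes had 13 of 69 sites added (18.8%) and 31 of 87 missed (35.6%). Abca1, a cholesterol efflux pump gene, had 88.7 in dKO dexamethasone and 20.9 in control vehicle at its site of highest ratio, 38.1 kb outside the gene. Srebf2, the master factor of cholesterol synthesis, had 27.3 in dKO dexamethasone and 67.9 in control vehicle, with 118.9 in control dexamethasone and 14.9 in dKO vehicle. Clock genes had 22 of 81 added (27.2%) and 31 of 90 missed (34.4%). Tef held both the strongest added (74.9) and the strongest missed clock site (36.2). Bhlhe40, a clock repressor gene, had 5.33 in dKO dexamethasone and 18.9 in control vehicle at a site 28.0 kb away. Nr1d1, which encodes the NCOR1-binding repressor REV-ERB-alpha, missed a site of 20.2 tags that dKO vehicle held (18.9) and control dexamethasone did not.

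Acute phase and inflammation genes had 16 of 66 sites one-sided in each list (24.2%). Of their 50 shared sites, 0 were 2-fold higher and 3 lower. Il1rn, the interleukin-1 receptor antagonist gene, had 19.3 in dKO dexamethasone and 42.2 in control vehicle. Orm1, an acute phase glycoprotein gene, had an added site of 48.0 tags, with 48.5 in control dexamethasone and 14.1 in dKO vehicle. Insulin signalling and glycogen genes had 39 of 130 sites added (30.0%) and 38 of 129 missed (29.5%). Of their 91 shared sites, 5 were 2-fold higher and 11 lower. Insr, the insulin receptor gene, had 35.4 in dKO dexamethasone and 6.55 in control vehicle, and Igf1, the hepatic growth factor gene, 38.5 in dKO dexamethasone and 111.4 in control vehicle. Corepressor complex and nuclear receptor genes had 37 of 98 added (37.8%), 27 of 88 missed (30.7%) and a median of -0.08. Thra, a thyroid hormone receptor gene, had 27.3 in dKO dexamethasone and 6.37 in control vehicle. Ncoa2, a coactivator gene, had 13.8 in dKO dexamethasone and 42.0 in control vehicle at a site 93.2 kb outside the gene.

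Marker genes of other liver cells also had sites. Near 7 Kupffer cell and leukocyte markers lay 2 dKO dexamethasone and 5 control vehicle sites, both dKO dexamethasone sites being shared. The stronger, 34.3 kb from Ptprc, had 43.6 in dKO dexamethasone and 67.0 in control vehicle. Near 13 endothelial, stellate and cholangiocyte markers 11 of 33 sites were one-sided in each list (33.3%). Near the hepatocyte markers 8 of 34 sites were added (23.5%) and 13 of 39 missed (33.3%). A shared site 21.5 kb from Alb, the albumin gene, had one of the lowest ratios, with 10.7 in dKO dexamethasone and 27.3 in control vehicle. Sites near genes of neurons, a cell type not sampled, had 4 of 16 one-sided in each list (25.0%).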

How the data were processed

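GR and NCOR1 ChIP-seq of mouse liver were deposited by the authors as HOMER peak lists, 1 for each group, with replicates pooled. The submitters' processing notes name mm10, HOMER 4.11, BWA 0.7.17, bedtools 2.29.2 and Trim Galore 0.6.4. Per the file headers, GR peaks of 200 bp needed 4-fold over input and over the local 10 kb, a p-value of 0.0001 for each and 15 tags. The deposited normalized tag count is a signal in tags per 10 M (mega) tags, and the deposited fold over input or over the local region is a ratio, per the file headers. GR libraries were not size selected, whereas the NCOR1 and input libraries were, per the labels.

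Overlaps of at least 1 bp were computed with Python 3.11.15, numpy 2.4.6 and pandas 2.3.3, tested on simulated data and checked against bedtools 2.31.1, where 0 of 350334 calls differed. Shares carry Clopper-Pearson intervals at 95% (scipy 1.17.1). A single ratio carries an exact conditional interval from its tags. Pooled lists allow no test of the conditions, so a 2-fold difference stands in for one. Sites went to the nearest protein-coding gene of GRCm38.p6 within 100 kb, and distances to starts use the RefSeq promoters given. Members of the comparison, the 14 gene lists and the rules for named genes were chosen with earlier results of these data known. Named are the 8 strongest sites of each one-sided class without a peak of the other list within 500 bp, the 8 highest and 8 lowest ratios in the strongest 20% of shared sites, up to 4 strongest one-sided sites and the 2 highest and 2 lowest ratios of each gene list, and 12 genes with all sites. Alternatives changed the overlap, thresholds, scaling, list length, fold and gene distance. A member of the corepressor list is not reported here and is left out of that list's counts. Peak sequences, exons and introns were not analysed here.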

Additional observations from a re-analysis of the deposited data

How the results depend on the processing

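No paired analysis was possible because the replicates of each group are pooled in 1 list, and for the same reason leaving out a replicate could not be run. The share of control vehicle sites reached, 67.3%, was 64.8% with at least 100 bp shared, 69.8% with peaks within 500 bp, 63.0% at 8-fold over input, 66.0% at 8-fold over local and 69.4% with lists of equal length. At 8-fold over local in both lists, 2859 dKO dexamethasone-only and 5365 control vehicle-only sites were left, a limit that keeps fewer peaks. The median log2 ratio of -0.42 was -0.43 with at least 100 bp shared, -0.25 in the strongest 20% and -0.14 scaled to tags in peaks; scaling to a median of 0 sets it to 0 by construction. The 723 sites 2-fold higher became 1249 scaled to tags in peaks, 1657 at a median of 0 and 1642 at 1.5-fold, and the 2227 lower became 569, 287 and 7774. The control dexamethasone list held 63.0% of dKO dexamethasone-only sites with at least 100 bp shared, 71.8% within 500 bp and 83.3% of the strongest 20%; for control vehicle-only sites these were 50.2%, 61.2% and 63.8%. NCOR1 was at 20.8% of dKO dexamethasone-only and 54.2% of control vehicle-only sites without NCOR1 peaks of the dKO list, at 37.6% and 58.2% with the control dexamethasone list, and at 19.2% and 66.4% in the strongest 20%. Of control vehicle-only sites 24.0% of the strongest 20% and 16.2% at 8-fold over input lay within 1 kb of a start. The NCOR1 and start alternatives were chosen after seeing the data. At these depths, of 27.5 to 31.9 M (mega) tags, a site not called in a list may still be bound there.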
